A study of Mus musculus with 6 samples.

Results

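The Toll-like receptor genes *Tlr1*, *Tlr2*, *Tlr3*, *Tlr4*, *Tlr6*, *Tlr7*, *Tlr8*, *Tlr9* and *Tlr13*, together with the coreceptor gene *Cd14*, were examined in whole tumors. They were chosen by symbol, and these 10 genes are part of 54309 gene identifiers in the table. Bulk RNA was measured in MCA205 tumors, a transplantable fibrosarcoma line of the mouse, grown under the skin of the right flank of female C57BL/6J mice that were 7 weeks old at use. Each mouse received 1000000 cells on day 0. The 3 Control mice drank milliQ water from day 1, the 3 FF-10101 mice drank water with 0.1 mg/mL FF-10101 from day 1, and all tumors were taken on day 8. FF-10101 is a kinase inhibitor that binds covalently to FLT3. It also inhibits CSF1R, the receptor that macrophages need for survival and differentiation, and from docking simulations the paper presumes a covalent bond there too. The study asked how blocking CSF1R alters tumor-associated macrophages, and the comparison here asks how the RNA of these receptors differed between treated and untreated tumors. The tumors of a group were biological replicates, so p values measure the spread between tumors. In bulk tissue, fewer cells of a type and less RNA per cell cannot be told apart.

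Toll-like receptors are membrane proteins that recognize conserved microbial molecules and some molecules released from damaged cells. TLR1, TLR2, TLR4 and TLR6 work at the cell surface, where CD14 hands lipid ligands to them, while TLR3, TLR7, TLR8, TLR9 and TLR13 sense nucleic acids inside endosomes. Engaged receptors recruit the adaptors MyD88 or TRIF, and the resulting NF-κB and IRF activity turns on cytokine, chemokine and interferon genes. Macrophages, monocytes and dendritic cells are known as rich sources of these receptors, though endothelial cells and fibroblasts also carry some of them.

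The libraries held 9143806 to 13258258 recovered reads, and a count of 0 allows up to 3 reads, a normalized count of 2.29 to 3.38. Fibrosarcoma and stromal markers (*Col1a1*, *Col1a2*, *Col3a1*, *Vim*, *Pdgfrb*) summed to 91130 to 271700 normalized counts over the tumors. They do not tell tumor cells from host stroma. The 10 macrophage markers (*Adgre1*, *Csf1r*, *Cd68*, *C1qa*, *C1qb*, *C1qc*, *Mrc1*, *Mertk*, *Fcgr1*, *Lyz2*) summed to 71510 to 108300 in Control tumors and 36380 to 57140 in FF-10101–treated tumors, with none at 0 reads. Of these markers 9 were below 0 in log2 fold change with all tumors (median −0.68) and 6 without Control tumor 1 (median −0.44), where *Csf1r*, *Cd68* and *Fcgr1* moved from −0.25, −0.13 and −0.10 to 0.14, 0.28 and 0.30. Leaving out Control tumor 1 moved the number of genes called from 6 to 3051, so the members and the pathway genes are given with and without it. Array weights of limma, which reflect how closely a tumor follows its group, were 0.139, 5.39 and 0.475 in Control tumors and 0.406, 8.08 and 0.859 in treated tumors, so tumor 2 of each group dominated a weighted fit. FF-10101–treated tumor 1 held keratinocyte markers (*Krt5*, *Krt14*, *Krt10*) at a sum of 919, against 19.6 to 152 elsewhere.

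Every member was detected in every tumor, and 10 of 10 passed the minimum mean of 10 normalized counts. Levels between genes were compared as normalized counts per kilobase of the longest coding transcript, averaged over the 6 tumors. *Cd14* had the highest level at 447 per kilobase, with 314 to 543 in single tumors. *Tlr2* followed at 247 (175 to 313), so its highest tumor lay just under the lowest of *Cd14*. *Tlr13* came next at 127 (71.1 to 196), a range that overlapped with that of *Tlr2*. Below it, *Tlr1* (87.3), *Tlr4* (84.5), *Tlr9* (62.3), *Tlr8* (55.4), *Tlr3* (53.3), *Tlr7* (40.5) and *Tlr6* (30.6) formed a continuous series on this per-kilobase scale, in which the tumor ranges of neighbors overlapped. The flagellin receptor gene *Tlr5* (11.0) and *Tlr11* (5.22) lay under all members, and *Tlr12* (46.4), which like *Tlr11* encodes a receptor for a protozoan profilin, lay among them.

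No member passed an adjusted p of 0.05 between the groups, either in limma on log2(normalized count + 1) or in limma-voom on the reads. At an unadjusted p below 0.05 the count was also 0 of 10, and in none of the 10 were the groups free of overlap. Among all 13963 genes tested, 0.0430% passed the adjusted threshold, 16.3% passed the unadjusted one and 20.2% had groups that did not overlap. Differences of 8 members were above 0 and 2 were below, with a median log2 fold change of 0.26, beside 0.02 over all genes tested. The members ranged from −0.37 for *Tlr7* to 0.62 for *Tlr3*, and adjusted p lay between 0.321 and 0.913. The exact two-sided permutation test over tumors gave 0.2 to 0.9 for single members, where the smallest p that 3 against 3 tumors allow is 0.1.

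**Figure D1:**
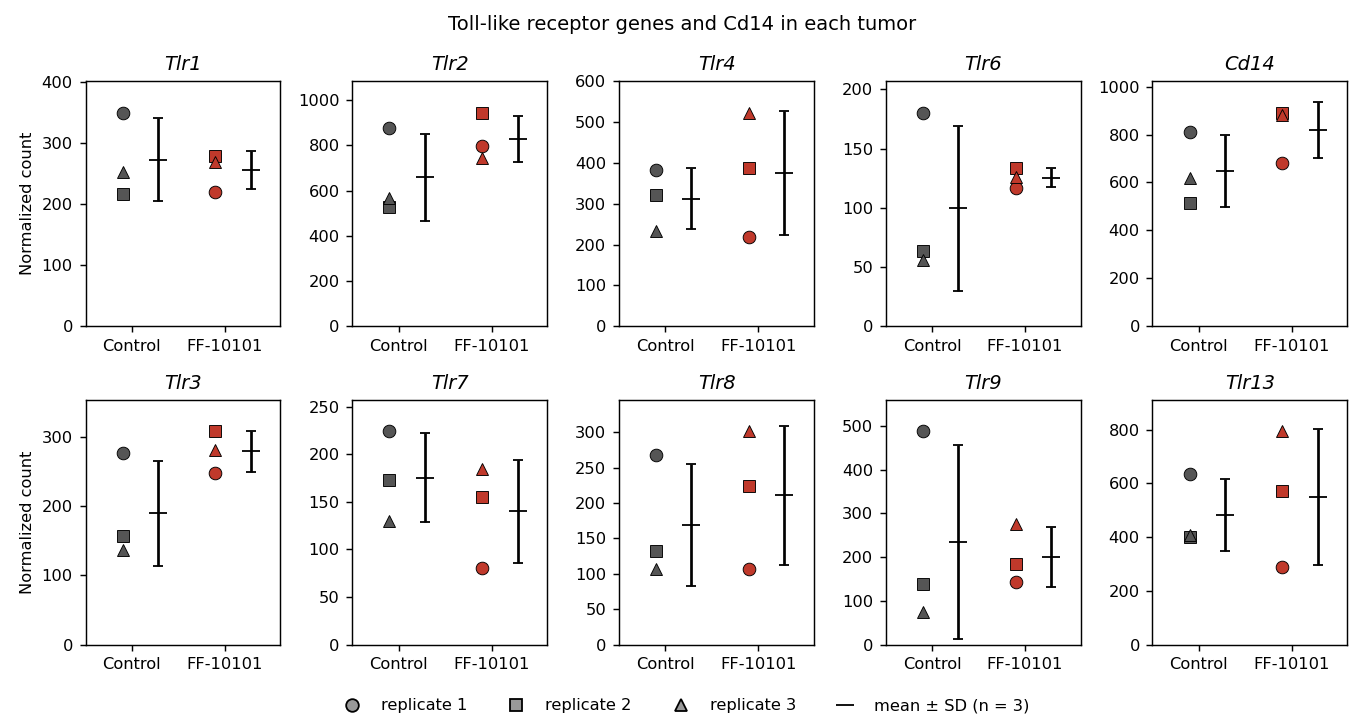
Normalized count (vertical axis, from 0) of each member in the Control (gray) and FF-10101–treated (red) tumors, with 1 symbol per replicate number and the mean ± SD of 3 tumors beside them. Control tumor 1 (gray circle) is the highest Control value in 10 of 10 panels, and the groups overlap in all of them.

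Among the surface receptors, *Tlr2* (ENSMUSG00000027995), which pairs with TLR1 or TLR6 to bind bacterial lipopeptides, measured 878, 528 and 569 normalized counts in Control tumors 1, 2 and 3 and 796, 943 and 745 in FF-10101–treated tumors 1, 2 and 3. The treated tumors lay close together and above Control tumors 2 and 3, but Control tumor 1 lay inside the treated range. The means were 658 ± 191 and 828 ± 103 (SD, n = 3 per group). The log2 fold change was 0.36 (SE 0.22, 95% interval −0.15 to 0.87, adjusted p = 0.437 in limma).

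Its partner gene *Tlr1* (ENSMUSG00000044827), for triacylated lipopeptides, measured 349, 216 and 253 in the Control tumors and 220, 278 and 269 in the treated tumors. The groups overlapped widely, and the means of 273 ± 68.5 and 256 ± 31.3 (SD, n = 3 per group) differed by −0.07 on the log2 scale (SE 0.22, 95% interval −0.58 to 0.44, adjusted p = 0.89). *Tlr6* (ENSMUSG00000051498), the partner for diacylated lipopeptides, measured 180.1, 63.0 and 55.5 in the Control tumors and 117, 134 and 126 in the treated tumors. Here 2 Control tumors were low and Control tumor 1 was the highest of all 6, while the treated tumors were nearly equal. The means of 99.5 ± 69.9 and 126 ± 8.36 (SD, n = 3 per group) differed by 0.54 on the log2 scale (SE 0.43, 95% interval −0.45 to 1.53, adjusted p = 0.548).

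*Tlr1* and *Tlr6* are close relatives in sequence, and 20.1% of the stretches of 31 bases in the *Tlr1* transcript and 16.9% of those in *Tlr6* also occur in another gene. For all other members this share was 0. Reads from the shared stretches were divided between them by estimation, so the sum of both genes is less dependent on that step. It was 529, 279 and 308 in the Control tumors and 337, 412 and 396 in the treated tumors. The share of *Tlr6* in the sum was 34%, 22.6% and 18% in Control tumors and 34.7%, 32.5% and 31.9% in treated tumors. Control tumor 1 again lay with the treated tumors in this share.

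*Tlr4* (ENSMUSG00000039005), the receptor for lipopolysaccharide, measured 384, 321 and 234 in Control tumors and 219, 387 and 523 in FF-10101–treated tumors. The treated group held both the lowest and the highest tumor, and its highest value was 2.38-fold its lowest. Means were 313 ± 75.2 and 376 ± 152 (SD, n = 3 per group), and the log2 difference was 0.21 (SE 0.33, 95% interval −0.56 to 0.97, adjusted p = 0.777). *Cd14* (ENSMUSG00000051439), which delivers lipopolysaccharide to the TLR4 complex and lipopeptides to TLR2, measured 811, 515 and 620.1 in Control tumors and 683, 890.2 and 884 in treated tumors. FF-10101–treated tumors 2 and 3 were above every Control tumor, and treated tumor 1 lay between Control tumors 1 and 3. The means of 649 ± 149.7 and 819 ± 118 (SD, n = 3 per group) gave 0.35 on the log2 scale (SE 0.21, 95% interval −0.13 to 0.83, adjusted p = 0.425).

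Of the endosomal receptors, *Tlr3* (ENSMUSG00000031639) encodes the sensor of double-stranded RNA that signals through TRIF. It had the largest difference of the 10 members with all 6 tumors, though not in every fit with a tumor left out. Without Control tumor 1, *Tlr6* had 1.07 against 0.93 for *Tlr3*. *Tlr3* measured 277, 157 and 136 in Control tumors and 248, 308 and 282 in FF-10101–treated tumors. Only Control tumor 1 reached into the treated range. The means were 189.9 ± 76.0 and 279 ± 30.1 (SD, n = 3 per group). The log2 fold change was 0.62 (SE 0.28, 95% interval −0.02 to 1.26, unadjusted p = 0.0571, adjusted p = 0.321 in limma).

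*Tlr7* (ENSMUSG00000044583) and *Tlr8* (ENSMUSG00000040522) encode related receptors of single-stranded RNA and its breakdown products. *Tlr7* measured 224, 173 and 129.8 in Control tumors and 80.2, 155 and 185 in treated tumors, which put FF-10101–treated tumor 1 lowest. Its log2 fold change was −0.37 (SE 0.35, 95% interval −1.18 to 0.44, adjusted p = 0.614), from means of 176 ± 47.2 and 140.1 ± 54.0 (SD, n = 3 per group). *Tlr8* measured 268, 133 and 107 in Control tumors and 107, 225 and 301 in treated tumors. Both groups spanned more than the difference between them, since the means of 169 ± 86.65 and 211 ± 97.9 (SD, n = 3 per group) differed by 0.31 on the log2 scale (SE 0.46, adjusted p = 0.752).

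*Tlr9* (ENSMUSG00000045322), the receptor for unmethylated CpG DNA, was the most variable member. It measured 487, 138 and 75.4 in Control tumors and 142, 184 and 275 in FF-10101–treated tumors. Control tumor 1 was 4.57-fold above the mean of Control tumors 2 and 3. The mean of 234 ± 222 in Control tumors was above the 200.1 ± 67.8 in treated tumors (SD, n = 3 per group), whereas the log2 fold change, which weighs ratios, was 0.16 (SE 0.62, 95% interval −1.26 to 1.59, adjusted p = 0.913). *Tlr13* (ENSMUSG00000033777), which recognizes a stretch of bacterial 23S ribosomal RNA and has no human counterpart, measured 636, 402 and 407 in Control tumors and 289, 571 and 794 in treated tumors. As with *Tlr4*, the treated group enclosed the Control group, and the means of 482 ± 134 and 551 ± 253 (SD, n = 3 per group) gave 0.11 on the log2 scale (SE 0.37, adjusted p = 0.897).

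A shared order of tumors ran through the members. Control tumor 1 was the highest Control tumor for 10 of 10 members, against 44.6% of all genes tested, and its ratio to the mean of Control tumors 2 and 3 ranged from 1.38 for *Tlr4* to 4.57 for *Tlr9*. FF-10101–treated tumor 1 was the lowest treated tumor for 9 of 10, all but *Tlr2*, against 41.7% of all genes. On average over the members, the log2 level relative to each gene's own mean was 0.52, −0.33 and −0.51 in Control tumors 1, 2 and 3 and −0.32, 0.25 and 0.40 in FF-10101–treated tumors 1, 2 and 3. These members come from the same libraries, so they are not independent. The macrophage marker sum was likewise highest among Control tumors in tumor 1 and lowest among treated tumors in tumor 1. It otherwise had another order, at 108300, 71510 and 87570 in Control tumors and 36380, 57140 and 56830 in treated tumors. Its largest gene, *Lyz2*, measured 42370, 31640 and 49000 in Control tumors and 12840, 24530 and 23650 in treated tumors. *Csf1r* (8961, 4388 and 3568 against 3295, 5006 and 5024), *Adgre1* and *Cd68* had the order of the members' average within each group. The other markers of that list did not. Single markers in this paragraph were named after their values were seen. Conventional dendritic cell markers (*Flt3*, *Zbtb46*, *Xcr1*, *Clec9a*, *Cd209a*, *Itgax*) summed to 1283 in Control tumor 1 against 487 and 391 in the others. In treated tumors they summed to 766, 839 and 809.8. *Itgax* was the largest of them, at 980, 320 and 192 in Control tumors and 584, 588 and 530 in treated tumors. Among Control tumors *Cd209a* was lowest in tumor 1 (20.3, against 56.5 and 61.0), and the other genes of that list were highest there. T cell markers (*Cd3e*, *Cd3d*, *Cd3g*, *Cd8a*, *Cd4*) summed to 1440, 559.7 and 493 in Control tumors and 626, 1273 and 1412 in treated tumors, which is the order of the members' average within each group. Plasmacytoid dendritic cell markers (*Siglech*, *Ccr9*, *Cox6a2*, *Pacsin1*) summed to 188, 105 and 104 against 99.3, 174 and 202, in that order as well. None of these genes had the order singly. *Cox6a2*, the largest in Control tumor 1, measured 96.8, 37.0 and 46.6 against 36.7, 99.9 and 61.3. In Control tumors *Siglech* was nearly flat (27.0, 25.0 and 26.6) and *Ccr9* was lowest in tumor 1 (11.3, 29.3 and 21.1). Endothelial markers (*Pecam1*, *Cdh5*, *Kdr*, *Tek*) summed to 3898, 1568 and 1096 against 3834, 4370 and 4536, in the order of the members' average within each group. Among genes of monocytes, given singly and chosen after their values were seen, *Chil3* measured 992, 197 and 152 in Control tumors and 1230, 1623 and 2815 in treated tumors (log2 fold change 2.52, adjusted p = 0.229). *Ly6c2* (1.49, adjusted p = 0.342), *Plac8* (1.504, adjusted p = 0.301), *Fn1* (0.05, adjusted p = 0.948) and *Ccr2*, for a chemokine receptor (−0.30, adjusted p = 0.575), did not pass either, and without Control tumor 1 *Chil3* (3.35, adjusted p = 0.000831), *Ly6c2* (2.36, adjusted p = 0.00643) and *Plac8* (2.33, adjusted p = 0.00166) did. B cell markers summed to 40.2 to 72 and skeletal muscle markers to 1627 to 5594 over all tumors, and the groups overlapped in both. The part of any of these cells in the order of the tumors was not tested.

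**Figure D2:**
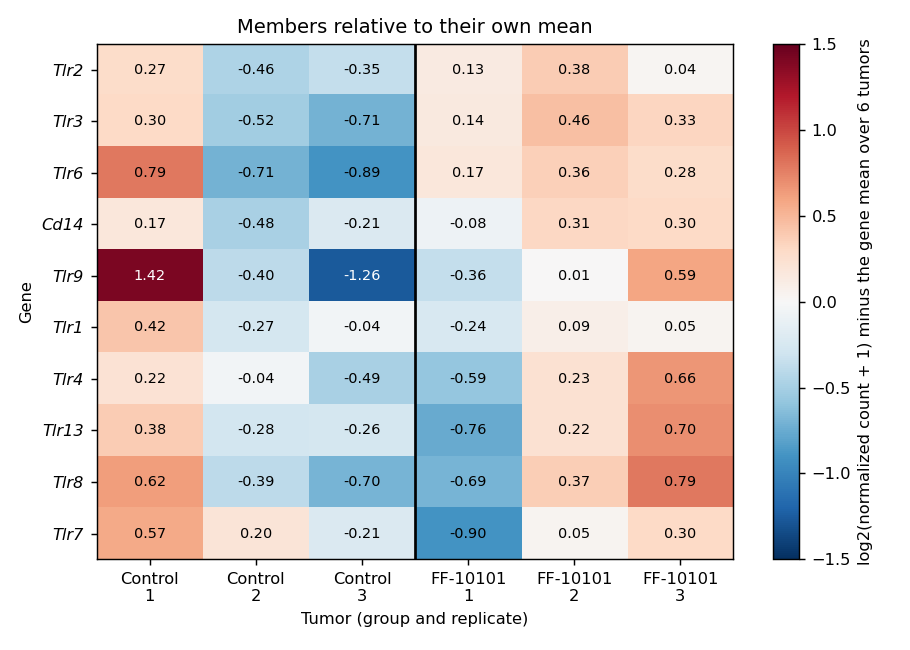
Each cell gives log2(normalized count + 1) of a member in a tumor minus that gene's mean over the 6 tumors, with red above and blue below the mean. The rows from *Tlr4* down to *Tlr7* are low in FF-10101–treated tumor 1 (−0.59 to −0.90), while *Tlr2*, *Tlr3* and *Tlr6* are above their mean in all 3 treated tumors and in Control tumor 1.

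Within this order, 8 of the members followed 2 courses, with *Tlr1* and *Tlr9* in neither. The genes *Tlr2*, *Tlr3*, *Tlr6* and *Cd14* varied little among treated tumors, the highest being 1.14-fold (*Tlr6*) to 1.30-fold (*Cd14*) the lowest, and correlated with each other over the 6 tumors (Pearson r of log2 values 0.822 to 0.944). *Tlr4*, *Tlr7*, *Tlr8* and *Tlr13* varied 2.31-fold (*Tlr7*) to 2.82-fold (*Tlr8*) among treated tumors and correlated with each other at 0.755 to 0.946. Across the courses r ran from 0.056 (*Tlr2* with *Tlr7*) to 0.795 (*Cd14* with *Tlr8*). *Tlr9* correlated with genes of both courses, at 0.629 (*Cd14*) to 0.871 (*Tlr6*) with the first and 0.634 (*Tlr7*) to 0.851 (*Tlr8*) with the second. These groupings were read from the same 6 tumors, which share depth and composition between genes, and are a description.

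For the 4 members with the most counts, the genes closest in course were sought among 11514 genes with a mean of at least 50. *Tlr2* was closest to *Nudt18* (r = 0.9953), *Gpr132* (0.9929), a G protein–coupled receptor gene, and *Pced1b* (0.9906). *Cd14* was closest to *Dact1* (0.9951), *Mall* (0.9917) and *Hba-a1* (0.9881), a hemoglobin gene of red blood cells that measured 345, 82.6 and 139.8 in Control tumors and 162, 406 and 495 in treated tumors. *Tlr13* was closest to *Fam172a* (0.9870), *Nipa2* (0.9860) and the leukocyte tetraspanin gene *Cd53* (0.9848), and *Tlr4* to the glucocorticoid receptor gene *Nr3c1* (0.9877), *Map3k3* (0.9875) and *Prpf18* (0.9867). With 6 tumors and this many genes, values of this size describe the nearest neighbors and no more.

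Without Control tumor 1, the fit of 2 Control against 3 treated tumors called 3 of 10 members, all higher after FF-10101, where 21.9% of all genes passed and 12.0% passed as higher. *Tlr3* rose by 0.93 on the log2 scale (adjusted p = 0.0115 in limma). *Tlr6* rose by 1.07 (adjusted p = 0.0124) and *Tlr2* by 0.59 (adjusted p = 0.03). *Cd14* (0.52, adjusted p = 0.0631) and *Tlr9* (0.91, adjusted p = 0.0927) did not pass. Values of 0.70 for *Tlr8*, 0.37 for *Tlr4*, 0.33 for *Tlr13*, 0.12 for *Tlr1* and −0.18 for *Tlr7* had adjusted p between 0.234 and 0.738. In 5 members, *Tlr2*, *Tlr6*, *Cd14*, *Tlr3* and *Tlr9*, the treated tumors then lay above both remaining Control tumors, against 28.4% of all genes. The median member was at 0.56, beside 0.04 over all genes. It was 0.50 without FF-10101–treated tumor 1, 0.20 without tumor 2 of either group and 0.03 without Control tumor 3, and without FF-10101–treated tumor 3 it was −0.04, with 4 members above 0 and 6 below. Leaving out any other single tumor called no member, so the 3 calls rest on the absence of Control tumor 1. Without FF-10101–treated tumor 1, the groups of *Tlr3*, *Tlr4* and *Cd14* did not overlap, all higher in treated tumors, where 39.2% of all genes did not overlap and 20.0% did not overlap as higher. *Tlr12*, which is no member, had the same dependence, with 375, 47.8 and 53.2 in Control tumors, 134, 126 and 148 in treated tumors, and a log2 fold change of 0.46 (adjusted p = 0.768) with all tumors and 1.41 (adjusted p = 0.00498) without Control tumor 1. *Tlr5* (0.19, adjusted p = 0.892) and *Tlr11* (0.03, adjusted p = 0.987) had few counts and did not pass with all tumors.

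**Figure D3:**
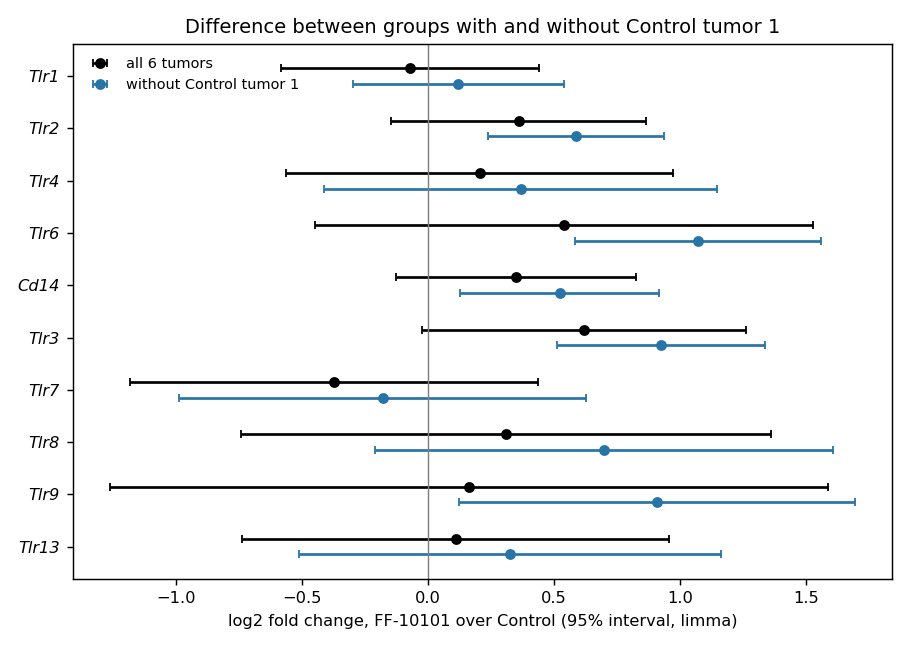
log2 fold change of FF-10101–treated over Control tumors (horizontal axis) for each member with its 95% interval from limma, with all 6 tumors in black and without Control tumor 1 in blue. Every black interval includes 0, and without Control tumor 1 the point of each of the 10 members lies further to the right.

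The start-site windows of *Tlr2*, *Tlr3* and *Tlr6* are shown because these members passed the threshold without Control tumor 1 and correlated at 0.923 to 0.944. Windows run from 250 bases before to 50 bases after a RefSeq start on GRCm38.p6. They were found for 7 of 10 members, 9 windows in all. Both strands were searched for the interferon-stimulated response element (ISRE) core GAAANNGAAA, the STAT site (GAS) TTCNNNGAA and the PU.1 core GAGGAA, which occur in 3.44%, 8.3% and 28.3% of 32851 such windows. These motifs were held by 1, 3 and 4 of the 9 member windows. Matches are in capitals, and a match is a description of letters.
Tlr2, chr3:83841559-83841858, minus strand, no match: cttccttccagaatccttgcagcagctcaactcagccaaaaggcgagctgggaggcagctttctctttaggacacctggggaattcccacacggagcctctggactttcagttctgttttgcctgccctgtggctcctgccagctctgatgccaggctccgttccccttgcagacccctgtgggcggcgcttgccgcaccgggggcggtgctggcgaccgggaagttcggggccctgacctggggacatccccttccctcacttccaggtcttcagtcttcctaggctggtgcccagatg
Tlr3, chr8:45410331-45410630, minus strand, no match: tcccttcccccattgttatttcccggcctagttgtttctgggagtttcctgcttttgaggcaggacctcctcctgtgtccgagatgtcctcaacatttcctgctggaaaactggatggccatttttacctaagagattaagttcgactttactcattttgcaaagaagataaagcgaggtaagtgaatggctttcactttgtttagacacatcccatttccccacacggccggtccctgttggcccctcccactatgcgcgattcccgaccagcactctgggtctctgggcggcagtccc
Tlr6, chr5:64959999-64960298, minus strand, GAS matches at positions −3 and 8 from the start site: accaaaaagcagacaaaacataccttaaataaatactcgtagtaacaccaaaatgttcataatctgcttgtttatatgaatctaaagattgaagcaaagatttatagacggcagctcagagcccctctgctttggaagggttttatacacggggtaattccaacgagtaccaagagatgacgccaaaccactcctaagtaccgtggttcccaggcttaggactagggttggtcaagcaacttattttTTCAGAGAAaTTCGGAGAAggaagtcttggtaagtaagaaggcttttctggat
Tlr6, chr5:64959117-64959416, minus strand, ISRE matches on the opposite strand at positions −116 and −110, overlapping each other: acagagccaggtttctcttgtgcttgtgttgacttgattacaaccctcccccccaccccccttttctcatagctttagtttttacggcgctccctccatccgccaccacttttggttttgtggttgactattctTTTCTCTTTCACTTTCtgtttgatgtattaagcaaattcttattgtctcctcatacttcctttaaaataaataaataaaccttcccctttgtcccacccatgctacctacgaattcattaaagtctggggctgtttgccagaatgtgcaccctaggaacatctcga

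Genes that supply the receptors with ligands had a median log2 fold change of 0.57 over 8 endogenous ligand genes, with 7 above 0. None passed an adjusted p of 0.05 in limma or limma-voom, 3 were higher at an unadjusted p below 0.05, and the same number had groups that did not overlap. Among all genes tested, 8.77% were higher at that unadjusted threshold and 20.2% had groups that did not overlap in either direction. *S100a8* and *S100a9* encode the subunits of calprotectin, a myeloid protein that activates TLR4. *S100a8* measured 146, 48.9 and 49.9 in Control tumors and 241, 184 and 237 in treated tumors (log2 fold change 1.61, adjusted p = 0.229). *S100a9* measured 216, 60.9 and 47.7 against 347, 262 and 400 (1.94, adjusted p = 0.229). All treated tumors were above all Control tumors in both. *Saa3*, an acute-phase protein gene, measured 1789, 504 and 724 against 1821, 3070 and 4836 (1.79, adjusted p = 0.229), and *Tnc*, for the matrix protein tenascin-C, was high in FF-10101–treated tumor 1 alone (3554, against 1294 to 1538 elsewhere). *S100a8* and *S100a9* are also in the list of 8 neutrophil markers, which summed to 1927 to 2276 in Control and 2737 to 3197 in treated tumors, with *Ngp* at 0 reads and *Ly6g* at no more than 3 reads per tumor. The part of neutrophils in these values was not tested. Without Control tumor 1 the list median was 0.88 and 4 genes were called higher, where 12.0% of all genes were. Among the 4 were *S100a8* (2.13, adjusted p = 0.00105), *S100a9* (2.60, adjusted p = 0.000737) and *Saa3* (2.31, adjusted p = 0.00557).

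Coreceptor and trafficking genes were divided, with 7 of 14 above 0 and 7 below and a median of 0.10. No gene was called in limma or limma-voom, and 1 was lower at an unadjusted p below 0.05, which 16.3% of all genes passed in either direction. That gene was *Rnaset2a*, for a lysosomal ribonuclease that prepares RNA ligands for endosomal receptors, at 1120, 649.8 and 681 in Control tumors and 371, 514 and 503 in treated tumors (log2 fold change −0.79, adjusted p = 0.234). Its copy *Rnaset2b* shares 87.3% of its stretches of 31 bases with other genes, mostly *Rnaset2a*, and had 0.26 (adjusted p = 0.636), so the split between the copies is uncertain. The share of *Rnaset2b* in their sum was 58.1%, 56.1% and 57.3% in Control and 73.4%, 72.9% and 74% in treated tumors, without overlap. The sum was 2676, 1480 and 1595 in Control and 1397, 1892 and 1938 in treated tumors, with overlap. *Ly86*, for the partner of the TLR4-like protein CD180, measured 2434, 1287 and 1228 against 899, 1225 and 1122, and the groups did not overlap (−0.55, adjusted p = 0.359). *Cnpy4*, for a chaperone of the receptors, measured 495, 428 and 454 against 643, 522 and 579.5 (0.34, adjusted p = 0.324). In this list 1 gene had all treated tumors higher and 2 had them lower, where 20.2% of all genes did not overlap in either direction. *Hsp90b1* encodes another chaperone (0.30, adjusted p = 0.425). *Unc93b1*, named after its values were seen because its protein carries the endosomal receptors to endosomes, measured 5929, 2429 and 2473 against 2294, 2946 and 2775. Without Control tumor 1 the list median was 0.34 and 1 gene was called higher, where 12.0% of all genes were. In that fit *Rnaset2a* (−0.54, adjusted p = 0.0645), *Ly86* (−0.23), *Cnpy4* (0.39) and *Hsp90b1* (0.39) did not pass.

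Of 24 adaptor and signaling genes, 17 were above 0 and 7 below, the median was 0.10, and none had groups that did not overlap. No call was made in limma or limma-voom, and none at an unadjusted p below 0.05. The genes with the smallest p were *Irf3* (−0.40, adjusted p = 0.373), for the factor downstream of TRIF, the kinase genes *Tbk1* (0.29, adjusted p = 0.405) and *Ikbke* (0.38, adjusted p = 0.429), and *Irf7* (0.69, adjusted p = 0.466), for the factor downstream of TLR7 and TLR9. *Irf7* measured 2605, 887 and 743 in Control tumors and 1488, 1976 and 2447 in treated tumors, so that Control tumor 1 exceeded all of them. Without that tumor *Irf7* (1.25, adjusted p = 0.00712) and *Ikbke* (0.61, adjusted p = 0.0376) were higher, the list median was 0.29, and 4 genes were called higher and 1 lower. In that fit 21.9% of all genes were called, and 12.0% were called as higher.

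Inhibitors of the pathway had a median of 0.50 over 11 of 12 genes tested, with 9 above 0, while *Sarm1* stayed below the minimum count. None passed an adjusted p of 0.05 in limma or limma-voom, and 4 were higher at an unadjusted p below 0.05, where 8.77% of all genes were. The 4 fell to 1 without Control tumor 2 and to 3 without FF-10101–treated tumor 1. They fell to 2 without Control tumor 3 or FF-10101–treated tumor 2 or 3. Groups that did not overlap in either direction made up 20.2% of all genes. *Tnfaip3*, for the ubiquitin-editing enzyme A20 that ends NF-κB signaling, measured 404, 261 and 239.6 in Control tumors and 445, 487 and 508 in treated tumors (0.71, adjusted p = 0.234). *Il1rl1*, for the IL-33 receptor ST2 that can dampen MyD88 signaling, measured 5087, 1454 and 1581 against 5680, 5552 and 7365 (1.44, adjusted p = 0.233). Both had all treated above all Control tumors. *Cyld*, for a deubiquitinase, likewise did not overlap (0.45, adjusted p = 0.28), whereas *Irak3*, for the inhibitory kinase homolog IRAK-M of myeloid cells, did (1.04, adjusted p = 0.291). *Il1rl1* is also expressed by mast cells, whose 4 markers (*Cpa3*, *Cma1*, *Mcpt4*, *Tpsb2*) summed to 158 to 235 in Control and 459.8 to 1410 in treated tumors, and the part of mast cells was not tested. Without Control tumor 1 the list median was 0.85 and 8 genes were called higher, where 12.0% of all genes were. Among the 8 were *Il1rl1* (2.02, adjusted p = 0.000464), *Tnfaip3* (0.94, adjusted p = 0.00587), *Irak3* (1.52, adjusted p = 0.00753) and *Cyld* (0.61, adjusted p = 0.0173).

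Genes that the receptors can induce had the highest median of the pathway lists, 1.30 over 17 of 18 genes tested, with 14 above 0. *Ifnb1*, for interferon-β, had 0 reads in every tumor. None passed an adjusted p of 0.05 in limma or limma-voom. At an unadjusted p below 0.05, 10 were higher and 0 lower, where 8.77% of all genes were higher. Treated tumors lay above all Control tumors in 7, where 20.2% of all genes did not overlap in either direction. The 10 fell to 4 without Control tumor 2, Control tumor 3 or FF-10101–treated tumor 1 and to 6 without FF-10101–treated tumor 3, and the median was lowest, 0.86, without Control tumor 3. *Cxcl2*, a neutrophil-attracting chemokine gene, measured 28.1, 15.2 and 18.9 in Control tumors and 129.8, 78.2 and 75.6 in treated tumors (log2 fold change 2.13, adjusted p = 0.184). *Cxcl1*, of the same chemokine family, measured 221, 40.2 and 41.0 against 533, 249.7 and 253 (2.16, adjusted p = 0.229). In both chemokines the groups were separate and FF-10101–treated tumor 1 was highest. *Nos2*, for inducible nitric oxide synthase, measured 215, 32.6 and 36.6 against 279, 334 and 623 (2.58, adjusted p = 0.229), and *Ccl5*, a T cell–attracting chemokine gene, measured 3177, 756 and 824 against 3716, 5566 and 4748 (1.88, adjusted p = 0.229). Without Control tumor 1 the list median was 2.13 and 12 genes were called higher, where 12.0% of all genes were. Among the 12 were *Nos2* (3.45, adjusted p = 0.000892), *Ccl5* (2.55, adjusted p = 0.000273), *Cxcl1* (2.96, adjusted p = 0.00166) and *Cxcl2* (2.37, adjusted p = 0.00399). These genes also answer to other cytokines, and their link to the receptors was not measured.

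**Figure D4:**
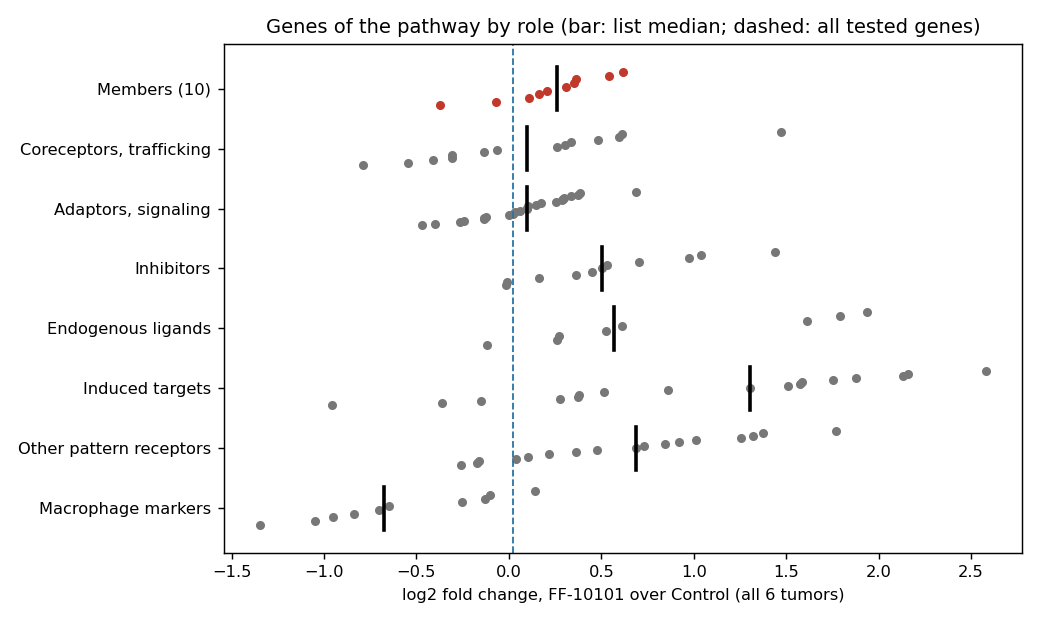
log2 fold change of FF-10101–treated over Control tumors for each tested gene (points) of the members and of the pathway lists, with the list median as a bar and the median of all 13963 genes as a dashed line at 0.02. The members have a median of 0.26, the induced targets of 1.30 and the macrophage markers of −0.68.

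The pattern receptors outside the Toll-like family served as the nearest comparison. Of these 17 genes, 14 were above 0, the median was 0.69, and none was called in limma or limma-voom. At an unadjusted p below 0.05, 5 were higher (6 in limma-voom), where 8.77% of all genes were. The groups of 1 gene did not overlap, against 20.2% of all genes in either direction. That gene was *Clec4e*, for the glycolipid receptor Mincle, at 258, 94.5 and 138 in Control tumors and 289, 443 and 461 in treated tumors (1.37, adjusted p = 0.229). *Clec7a*, for the β-glucan receptor Dectin-1, measured 3039, 1867 and 1156 against 2632, 6040 and 5639 (1.26, adjusted p = 0.243). *Fpr2* (1.77, adjusted p = 0.286), a formyl peptide receptor gene, and *Ddx58* (0.73, adjusted p = 0.293), for the cytosolic RNA sensor RIG-I, did not pass. Whether the members differed from these receptors was not tested. Without Control tumor 1 the median of these receptors was 1.05, with *Clec4e* at 1.76 (adjusted p = 0.00459), *Clec7a* at 1.61 (adjusted p = 0.0188), *Fpr2* at 2.63 (adjusted p = 0.0045) and *Ddx58* at 1.05 (adjusted p = 0.011). Without Control tumor 2 the median was 0.33 and without Control tumor 3 it was 0.41, and the 5 at an unadjusted p below 0.05 were 1 or 2 without any single tumor other than Control tumor 1. All treated tumors lay higher in 4 genes without FF-10101–treated tumor 1 and in 11 without Control tumor 1. The shares of all genes were 20.0% and 28.4%. In the fit without Control tumor 1, 21.9% of all genes were called. Among the lists, 10 of the 17 were called, beside 3 of the 10 members, 16 of 25 ligand and target genes and 14 of 49 coreceptor, adaptor and inhibitor genes.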

How the data were processed

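Total RNA of 6 MCA205 tumors, 3 Control and 3 FF-10101, was sequenced, and groups follow the sample labels. The authors trimmed reads with fastp version 0.19.5, quantified them with Salmon version 1.5.1 on GENCODE vM27 (GRCm39) and used DESeq2 version 1.22.1. The deposited values are on a log2 scale, 1 per gene and tumor, of the form of a variance-stabilizing transformation, which the sources used here do not state. Its inverse gave whole reads for 100% of 325854 values (tolerance 1e-06) and 1 size factor per tumor. Normalized counts are reads divided by that factor. Salmon assigns reads shared by several genes by estimation. Limits from a count of 0 cover counting error only.

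The 13963 genes whose normalized counts averaged 10 or more were tested on log2(normalized count + 1), where fold changes of low genes are understated, with limma version 3.58.1 in R version 4.3.3 (lmFit, eBayes with a trend, group as the sole term) and Benjamini-Hochberg adjustment over all of them. The steps were tested on simulated data. GENCODE vM21 names matched 51484 identifiers. That annotation is on GRCm38, so no gene coordinates are given, and its transcripts gave lengths and shared stretches. Start-site windows are RefSeq's on GRCm38.p6. The members and lists were chosen with earlier results of these data known. Named were every member, *Tlr5*, *Tlr11* and *Tlr12*, the 4 genes of smallest p and any called gene of each pathway list, and the 3 genes most like each of the 4 members with the most counts, with whole cell type lists summed, of which 1 is not reported here. Alternatives were array weights, a replicate block, other pseudocounts (0.5 and 10), other minimum means (none and 50), other scalings (quantile normalization and the 75th percentile), eBayes with no trend, the deposited values used directly, limma-voom on the reads, and each tumor left out in turn.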

Additional observations from a re-analysis of the deposited data

How the results depend on the processing

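Under both pseudocounts, no minimum, a mean of at least 50, both scalings, no trend, the deposited values and limma-voom, 10 of 10 members kept their direction and none was called. Array weights, which gave tumor 2 of each group 5.39 and 8.08 and the other tumors 0.139 to 0.859, so that the fit came close to 1 tumor against 1, called 7 members, 30 coreceptor, adaptor and inhibitor genes, 19 ligand and target genes and 15 other pattern receptors, with 8365 of all genes called, and moved *Tlr1* to 0.31. Leaving out each tumor in turn gave 0 to 3 members called, 0 to 14, 0 to 16 and 0 to 10 genes of those lists, and 0 to 5 members without overlap. The highest value of each was without Control tumor 1, and without FF-10101–treated tumor 1 the groups of 3 members did not overlap, all higher, against 20.0% of all genes. Genes called among all tested were 6, but 17 with no minimum, 3 with a mean of at least 50, 5 with a pseudocount of 10 and in limma-voom, and 1 to 3051 with a tumor left out. With a tumor left out, list medians were −0.02 to 0.34 for coreceptors, 0.02 to 0.29 for adaptors, 0.32 to 0.85 for inhibitors and 0.36 to 0.88 for ligands, each highest without Control tumor 1, and the lowest were without Control tumor 2 for the first 2 and without Control tumor 3 for the others. The cause was not tested.

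With a tumor left out, *Tlr1* ranged from −0.22 to 0.12 (above 0 without Control tumor 1 or FF-10101–treated tumor 1), *Tlr4* from −0.074 to 0.55, *Tlr8* from −0.0074 to 0.74, *Tlr9* from −0.43 to 0.91 and *Tlr13* from −0.21 to 0.52. Each of the last 4 fell below 0 without FF-10101–treated tumor 3. *Tlr5* ranged from −0.29 to 0.88 and was −0.012 under quantile normalization, *Tlr11* ranged from −0.34 to 0.49 and was −0.38 under quantile normalization and −0.050 in limma-voom, and *Tlr12* ranged from −0.060 to 1.41. *Tlr2*, *Tlr3*, *Tlr6*, *Cd14* and *Tlr7* kept their direction with any tumor left out.

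The labels state no pairing of same-numbered tumors. Their deviations from the group means correlated at −0.288, −0.040 and −0.277, which with 3 tumors per group cannot exclude a pairing. With the replicate block, 0 members and 1 gene of all tested were called. With 3 tumors per group, the 95% interval of every member includes 0, with upper bounds from 0.44 (*Tlr7* and *Tlr1*) to 1.59 (*Tlr9*).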
